A study of Homo sapiens with 14 samples.

Results

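H3K9me3, the trimethylated form of lysine 9 on histone H3, was mapped by CUT&RUN in 2 of the 14 libraries of the series, and these 2 libraries are described here across the genome. Their members are the broad peaks that the authors deposited for each library, on the 22 autosomes and X, in hg38 coordinates. Replicate 1 held 36687 regions after overlapping peaks were merged, and replicate 2 held 21770. Bases present in both lists are called the mark, and they formed 20282 regions covering 32.1 Mb. CUT&RUN uses an antibody to tether a nuclease to a chromatin feature, so that DNA beside the feature is cut out, released and sequenced. TC-32 is an established Ewing sarcoma line, used wild type and untreated. The series asked which chromatin states the EWSR1::FLI1 fusion protein is associated with, and also held FLI1 (4 libraries), H3K27ac (2), H3K27me3 (2) and IgG (4), of which 10 antibody libraries have peak lists. Titles name sets A and B without saying how they differ. Both H3K9me3 and both H3K27me3 libraries are in set B, and their peaks were called against the set B IgG libraries, so the values below are already relative to IgG. The labels do not say whether replicates came from separate cultures, so their spread may be technical. Gene expression was not measured, so no cell identity markers could be checked.

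H3K9me3 is written by the SUV39H and SETDB1 methyltransferases and read by HP1 proteins, which help to compact chromatin. In most cells it is known over satellite and transposon DNA, and over the bodies of KRAB zinc-finger genes, where it is deposited through TRIM28 (KAP1). These genes encode repressors that recognise DNA through rows of repeated fingers, and most of their fingers are encoded in 1 long final coding exon. H3K27me3, which Polycomb complexes write at gene starts, is the repressive mark compared with it below.

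The sequence features that the results turn on are shown first. Zinc fingers are joined by a conserved linker. The commonest 14-base sequence in the last coding exons of zinc-finger genes was ACTGGAGAGAAACC, which codes for part of it, with 883 copies. Letters shared by at least 90% of copies with up to 3 mismatches gave the motif ACNGGNGANAANCC, where N is any base, and it was searched on both strands. Among zinc-finger genes with the mark over the last coding exon, ZNF12 had the highest fold over IgG relative to the other peaks of each list. Its exon is shown over chr7:6691789-6692088 in hg38, read on the minus strand, with linker matches in capitals.

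ZNF12: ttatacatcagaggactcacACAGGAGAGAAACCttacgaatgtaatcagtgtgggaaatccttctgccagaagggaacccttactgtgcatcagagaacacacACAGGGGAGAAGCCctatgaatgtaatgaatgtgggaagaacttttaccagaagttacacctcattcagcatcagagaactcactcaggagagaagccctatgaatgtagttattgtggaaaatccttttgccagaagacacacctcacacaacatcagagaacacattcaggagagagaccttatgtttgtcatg

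The 2 matches start 84 bases apart, which is the length of 1 finger with its linker. This exon lay within 1 unbroken region of 36.2 kb, with deposited folds of 8.84 in replicate 1 and 8.29 in replicate 2.

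The 5 regions with the highest folds were instead short, and the next sequences, taken from them, show a tandem repeat and a sequence shared between chromosomes. The repeat lies in CACNA1C, a calcium channel gene, at chr12:2255852-2256151 in hg38 (plus strand), and capitals mark the exact copies of its 30-base unit.

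CACNA1C: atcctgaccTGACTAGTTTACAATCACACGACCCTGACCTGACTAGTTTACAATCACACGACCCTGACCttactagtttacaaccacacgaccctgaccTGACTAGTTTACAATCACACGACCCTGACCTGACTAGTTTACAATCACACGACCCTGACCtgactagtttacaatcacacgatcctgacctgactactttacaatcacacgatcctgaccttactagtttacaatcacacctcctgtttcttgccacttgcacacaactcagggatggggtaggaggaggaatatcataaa

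The shared sequence is at chr13:18214908-18215207 and at chr21:10274002-10274286 in hg38 (plus strand), with the longest run common to both in capitals.

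Chromosome 13: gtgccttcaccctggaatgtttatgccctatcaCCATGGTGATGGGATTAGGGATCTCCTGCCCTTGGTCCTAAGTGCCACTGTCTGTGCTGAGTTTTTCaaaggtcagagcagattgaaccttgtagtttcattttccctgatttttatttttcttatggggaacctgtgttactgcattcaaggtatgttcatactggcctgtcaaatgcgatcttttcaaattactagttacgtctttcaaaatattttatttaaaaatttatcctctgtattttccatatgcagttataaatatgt
Chromosome 21: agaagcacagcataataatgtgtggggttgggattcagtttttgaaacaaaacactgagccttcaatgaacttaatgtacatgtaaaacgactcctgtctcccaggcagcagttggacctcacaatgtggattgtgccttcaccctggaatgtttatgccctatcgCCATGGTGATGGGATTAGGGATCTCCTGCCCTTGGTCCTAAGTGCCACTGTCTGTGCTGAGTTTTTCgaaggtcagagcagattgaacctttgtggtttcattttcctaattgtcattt

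The common run is 67 bases long, and 152 aligned bases around it were 91.4% identical. How reads with several genomic matches were placed is not given in the sources used here, so values over such copies may be split or shared among them.

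Most of the shorter list lay within the longer one. Replicate 1 covered 59.7 Mb (2.05% of the ungapped genome) and replicate 2 covered 38.8 Mb (1.33%), while the mark covered 1.10%. Of replicate 2 bases, 82.8% lay in replicate 1, but 53.8% of replicate 1 bases lay in replicate 2. The regions that replicate 1 alone held lay mostly among its weaker ones. By deposited −log10 q, 24.3% of its regions in the lowest quartile overlapped replicate 2, against 81.7% in the highest quartile. In replicate 2 these shares were 78.5% and 96.6%. Median folds over IgG were 4.67 and 5.08. Depth was not known from peak lists, so whether the longer list of replicate 1 reflects more reads was not tested. Each value below is given for replicate 1, replicate 2 and the mark, in that order, unless stated.

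Chromosome 19 stood apart from every other chromosome in both replicates. The mark covered 3.65 Mb of it, or 6.24% (9.61% and 6.96% in replicates 1 and 2), which was 11.4% of all marked bases. Chromosome 1 came next at 2.61%, 1.84% and 1.55%. Chromosomes 7, 12 and 2 followed with 1.36%, 1.36% and 1.30% in the mark, closer to each other than the replicates of any of them were. Chromosome 13 had the lowest share (1.05%, 0.592% and 0.459%), followed by X (1.16%, 0.634% and 0.503%). Outside chromosome 19 the mark covered 0.998% (1.90% and 1.22%). Chromosome 19 carries 258 of the 559 protein-coding genes whose symbols begin with ZNF, ZFP, ZSCAN or ZKSCAN, called zinc-finger genes here. Read-through genes such as ZNF670-ZNF695, and unnamed gene models that overlap zinc-finger genes, were counted with the other protein-coding genes. Inside zinc-finger bodies on chromosome 19, 46.7%, 36.9% and 33.8% of bases were covered. Outside them the chromosome was covered at 3.78%, 2.25% and 1.91%, which was still above the 1.82%, 1.15% and 0.933% outside zinc-finger bodies on other chromosomes.

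**Figure D1:**
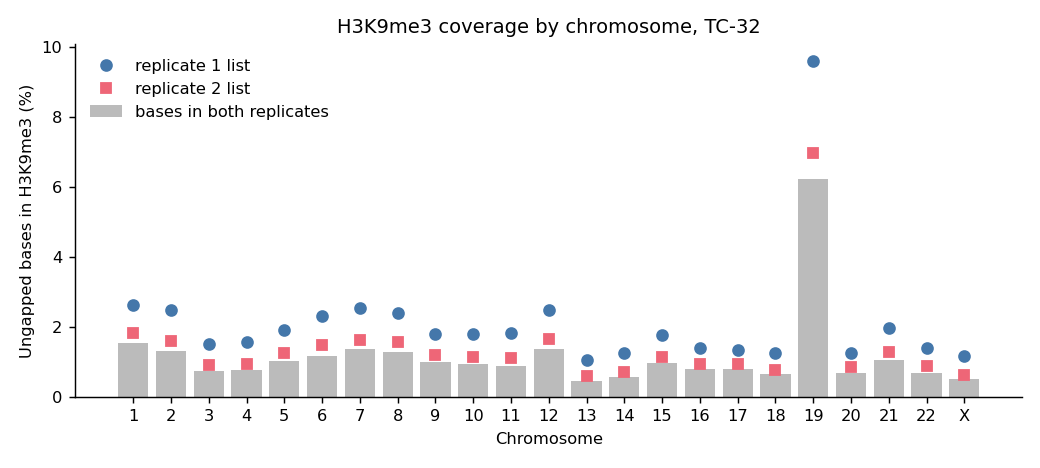
Percent of ungapped bases in H3K9me3 (vertical axis) for each chromosome (horizontal axis). Bars show bases in both replicates, circles replicate 1 and squares replicate 2, and chromosome 19 is highest in each, at 9.61% in replicate 1 and 6.96% in replicate 2.

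The mark was also denser near chromosome ends. Within 1 Mb of an end it covered 5.56%, 4.39% and 3.99% of bases. Assembly gaps are counted in the total here and in the other shares by distance. A large part of this came from few ends with zinc-finger genes. The mark held 290 kb in the first window of chromosome 4. It held 264 kb in the last window of chromosome 19 and 238 kb in that of chromosome 12. The share without these ends was not computed. Beyond 20 Mb from an end it covered 1.83%, 1.16% and 0.949%. From 1 to 5 Mb the shares were 2.42%, 1.67% and 1.44%. H3K27me3 in both of its replicates had another profile, with 3.18% in the first 1 Mb, 4.68% from 1 to 5 Mb and 0.473% beyond 20 Mb.

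In windows of 1 Mb, coverage was low for most of the genome and concentrated in few places. Of 3044 windows, 585 held no marked base and the median held 4.29 kb. The 30 windows with the most marked bases held 16.7% of the mark. Windows include assembly gaps, where no peak can lie, and how many of the 585 are gaps was not counted. The 31 windows with 5 or more zinc-finger genes held 319 of these genes and were covered at 22.4%, 17.0% and 15.4%. The 2838 windows with no such gene were covered at 1.69%, 1.06% and 0.855%, and because they are so many they held 75.3% of the mark. Zinc-finger bodies themselves held 4.67 of the 32.1 Mb, so most marked bases lay outside this family.

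The 5 windows with the most marked bases were 4 on chromosome 19 and the first of chromosome 4. The last window of a chromosome is shorter than 1 Mb, so this is not a ranking by density. The last window of chromosome 12, chr12:133000001-133275309, held 251, 240 and 238 kb. The highest of the 5, at chr19:52000001-53000000, held 593, 430 and 400 kb. In it, 23 of 23 zinc-finger genes carried the mark in their bodies, and ZNF432 had 54.0, 51.5 and 47.8 kb. In the window at chr19:36000001-37000000, 15 of 15 zinc-finger genes were marked against 1 of 11 other protein-coding genes. That 1 is an unnamed gene model that overlaps ZNF345. There ZNF850 had 48.3 kb in the mark (82.6% of its body), while COX7A1, a cytochrome oxidase subunit gene, had 0 in each replicate. The window at chr19:37000001-38000000 followed with 467, 357 and 307 kb, where ZNF420 held 51.1 kb and ZNF585A 50.7 kb. At the start of chromosome 4, 371, 323 and 290 kb were covered, the 5 zinc-finger genes were all marked, and 0 of 13 other protein-coding genes were. ZNF718 there held 61.5, 56.3 and 51.7 kb. In the last window of chromosome 19, chr19:58000001-58617616, 10 of 16 zinc-finger genes and 2 of 11 others were marked. These 2 were SLC27A5 and an unnamed gene model that overlaps ZNF544. Along chromosome 19 in steps of 10 Mb, the share of zinc-finger bodies with the mark ran from 64.5% (40 to 50 Mb) to 96.8% (10 to 20 Mb). By bases the range was wider, from 19.8% (20 to 30 Mb) to 52.2% (0 to 10 Mb).

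Of 19970 protein-coding genes, 3599 (18.0%) had at least 1 marked base in the body, 274 (1.37%) within 1 kb of the start and 454 (2.27%) within 1 kb of the end. In replicates 1 and 2, respectively, the counts were 4955 and 3823 for bodies, 519 and 305 for starts, and 638 and 487 for ends. Ends with the mark outnumbered starts in each replicate. For H3K27me3 in both replicates, 13.3% of bodies, 9.36% of starts and 2.97% of ends were marked, with starts ahead. The log2 ratio of marked ends to marked starts was 0.30 and 0.68 in the H3K9me3 replicates, and -1.39 and -1.57 in the H3K27me3 replicates, so the groups did not overlap. The means were 0.49 ± 0.27 and -1.48 ± 0.13 (SD, n = 2 each), a difference of 1.96. The exact two-sided permutation test over the 4 libraries gave p = 0.333 (adjusted 0.333 over 2 differences), the smallest value that this design allows, so it cannot reach the usual threshold. Without zinc-finger genes the ratios were -0.03 and 0.21 for H3K9me3 and -1.39 and -1.57 for H3K27me3, a difference of 1.57. With windows of 5 kb around starts and ends the difference was 0.82. The share of list bases on chromosome 19 was 9.41% and 10.5% for H3K9me3 and 3.12% and 2.87% for H3K27me3, a difference of 6.96 points with the same exact permutation p of 0.333.

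Whether a body touched the mark varied with its length. Among genes that are not zinc-finger genes, 1.31% of those under 10 kb, 4.11% of 10 to 30 kb, 18.8% of 30 to 100 kb and 52.3% of 100 kb or more were marked, although at most 1.12% of bases were marked in each class. Zinc-finger genes of the same classes were marked at 25.4%, 65.8%, 80.2% and 58.3%. For 10 to 30 kb, 35.3% of zinc-finger body bases were in the mark against 0.478% of the others.

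Zinc-finger genes carried the mark mainly at and before their ends. On chromosome 19, 210 of 258 bodies (81.4%) were marked, with 223 in replicate 1 and 211 in replicate 2. Starts were marked in 47 (18.2%) and ends in 136 (52.7%). Elsewhere, 155 of 301 bodies (51.5%), 31 starts (10.3%) and 88 ends (29.2%) were marked. On chromosome 19, 96 genes had the mark at the end and not the start, 7 at the start and not the end, and 40 at both. For 19411 other protein-coding genes the corresponding counts were 190, 156 and 40. H3K27me3 was found in 1 of the 258 chromosome 19 bodies.

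The same asymmetry was seen along the gene. In genes of at least 5 kb cut into 20 equal bins, the mean share covered on chromosome 19 was 9.26% in the first bin, 51.5% in bin 18 and 41.7% in the last bin. The first bin was lower in both replicates (16.7% and 10.1%) than bin 18 (61.7% and 53.9%). Zinc-finger genes elsewhere followed the same course at lower values, with 5.23% in the first bin and 29.2% in bin 17. Other protein-coding genes stayed between 0.507% and 1.15% in every bin. H3K27me3 in those genes had 4.94% in the first bin and 1.25% in the last.

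**Figure D2:**
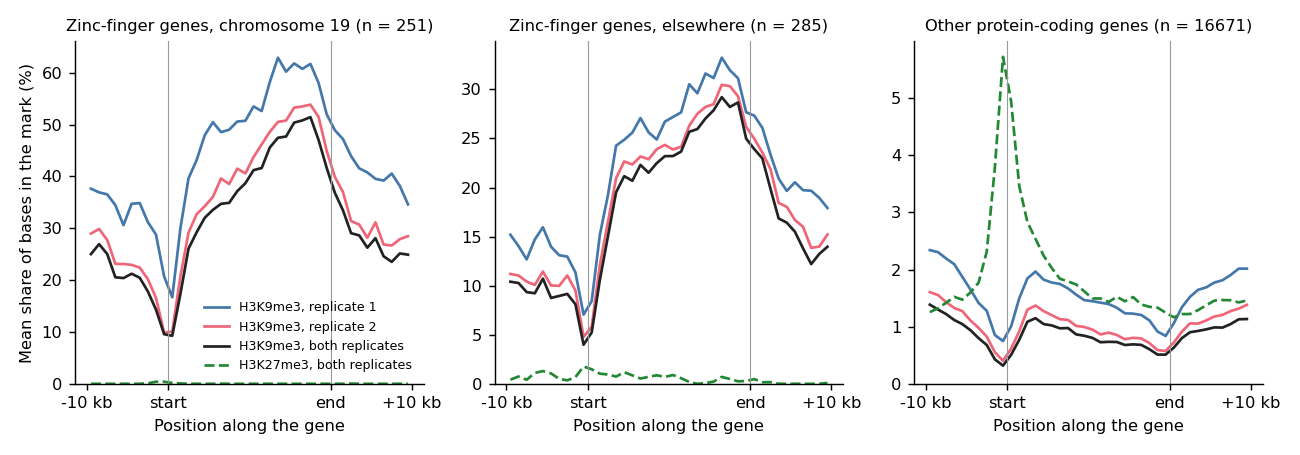
Mean percent of bases in the mark (vertical axis, scaled separately in each panel) from 10 kb before the start to 10 kb after the end of genes of at least 5 kb (horizontal axis, bodies in 20 equal bins, flanks in 1 kb bins). Solid lines are H3K9me3 in replicate 1, replicate 2 and both, the dashed line is H3K27me3 in both replicates, and H3K9me3 in chromosome 19 zinc-finger genes climbs from 9.26% in the first bin to 51.5% in bin 18.

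By exon, the last coding exon was the most covered part. On chromosome 19 it was covered at 77.6%, 72.7% and 70.3%, and 193 of 258 last coding exons touched the mark. The first exon was covered at 8.58%, 4.47% and 4.18%. Introns were at 49.2%, 38.5% and 35.0%, and exon sequence after the last coding exon at 63.2%, 55.3% and 51.8%. In zinc-finger genes elsewhere the last coding exon was at 48.1%, 46.4% and 45.4% and introns at 15.2%, 13.3% and 12.5%. In other protein-coding genes the first exon (1.47% in the mark) and the last coding exon (1.02%) were close to the introns (0.973%), and other exons before the last were at 0.262%.

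**Figure D3:**
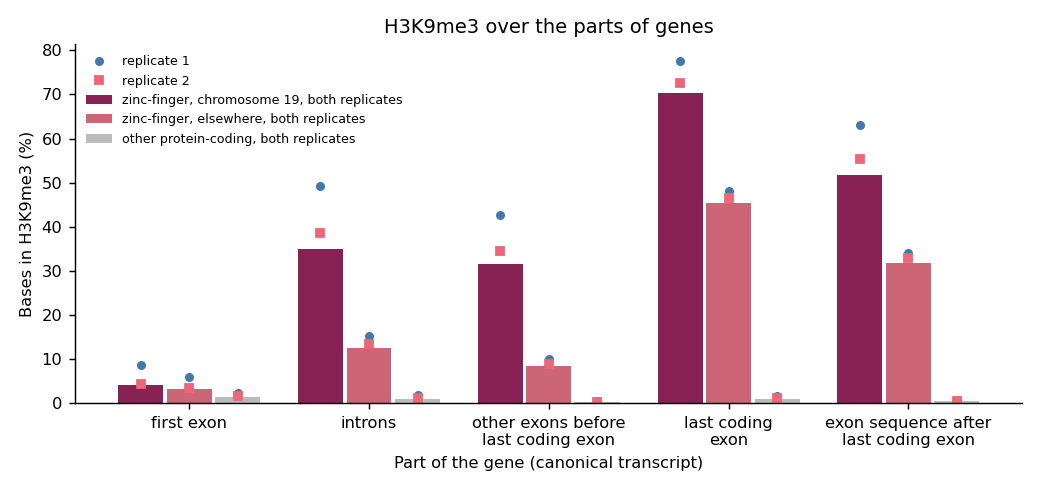
Percent of bases in H3K9me3 (vertical axis) in parts of the canonical transcript (horizontal axis) for 3 gene sets. Bars show bases in both replicates, circles replicate 1 and squares replicate 2, and the last coding exon of chromosome 19 zinc-finger genes is the highest, at 70.3% in both replicates.

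The linker DNA shown for ZNF12 was then counted over the whole genome, inside and outside the zinc-finger genes it was derived from. Of 7707 matches in the genome, 34.0%, 31.8% and 31.1% lay in the lists. Of 2319 matches with another match 84 bases away, as between neighbouring fingers, 81.7%, 77.5% and 75.9% did, and 0% lay in H3K27me3. Within coding exons of zinc-finger genes, 1947 such paired matches were in the mark at 79.7%. Another 251 lay outside the bodies of genes under the name rule, where 56.2%, 51.0% and 48.6% were covered. Zinc-finger genes with other symbols, such as RBAK, and pseudogenes such as ZNF833P were not excluded from these 251. How many of the 251 lie in such genes was not counted. The 234 regions of at least 10 kb held a pair in 48.3% of cases. Genome windows of that width were not counted, and 60.3% of these regions touched zinc-finger bodies, from which the motif was derived. For regions within 250 bases of 1 kb the share was 0.201% (8 of 3977), against 0.0210% of all genome windows of 1000 bases. A match describes sequence and says nothing of which protein binds there.

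Zinc-finger genes also led the list of the most covered genes. At least 5 kb of the body was marked in 1016 protein-coding genes (5.09%), of which 269 were zinc-finger genes. Of the 100 with the largest share covered, 89 were zinc-finger genes, and of the 175 covered over 50% or more, 152 were. The 10 most covered were ZNF454, GRM6, ANHX, ZNF671, ZNF501 and ZNF572 at 100%, ZNF544 (96.9%), ZNF274 (96.8%), ZNF300 (96.6%) and ZNF891 (96.6%). GRM6, which encodes a glutamate receptor of retinal bipolar cells, lies beside ZNF454 in the same region, and ANHX, a homeobox gene, beside ZNF268. ZNF274 encodes a zinc-finger protein known to bring SETDB1 to other zinc-finger genes, and 29.6 of its 30.5 kb were marked in each replicate and in both. The following genes of other families were chosen after their values were seen. MAPK9, which encodes the kinase JNK2, lies across a region of 35.4 kb. CHFR, a mitotic checkpoint gene next to ZNF605, held 70.1, 64.6 and 64.3 kb. STK3, a Hippo pathway kinase gene of 571.6 kb, held 112, 82.8 and 76.4 kb, or 13.4% of its body. FAF1, which encodes a FAS-associated factor, held 76.2, 63.5 and 59.3 kb. RBAK, a KRAB zinc-finger gene whose symbol lies outside the name rule, was covered at 89.5%, 87.6% and 87.6%.

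FLI1 and H3K27ac, which marks active starts, were compared at zinc-finger starts. Among protein-coding genes, 10.2% had H3K27ac in both replicates and 33.8% had FLI1 regions from each of its 4 libraries, both within 1 kb of the start. Of 365 zinc-finger genes with the mark in the body, 23 (6.30%) had H3K27ac and 163 (44.7%) had FLI1 there. Of 194 zinc-finger genes without it, 37 (19.1%) had H3K27ac and 104 (53.6%) had FLI1. On chromosome 19, 3.10% of zinc-finger starts had H3K27ac and 45.3% had FLI1, against 17.3% and 49.8% elsewhere. Bodies were marked in 81.4% on chromosome 19 and 51.5% elsewhere, so genes with and without the mark also differ by chromosome. H3K27ac was mapped in set A and H3K9me3 in set B, and what separates the sets is not stated.

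Clustered protocadherins had 21.5%, 14.9% and 13.9% of body bases covered, with overlapping bodies counted once for each gene. Gamma genes (38.1%, 26.6% and 25.4%) and beta genes (29.7%, 18.0% and 15.7%) were densely covered. Alpha genes, at 3.59%, 2.47% and 1.63%, were near the 2.30%, 1.59% and 1.35% of all protein-coding genes. These genes on chromosome 5 encode neuronal adhesion proteins, and each alpha and gamma gene has its own first exon spliced to shared last exons. Bodies were marked in 42 of 53 genes (48 in replicate 1 and 42 in replicate 2), starts in 23 (32 and 27) and ends in 2. Of all protein-coding genes, 18.0% of bodies, 1.37% of starts and 2.27% of ends were marked. The median protocadherin gene was 110 kb long. Outside the zinc-finger family, 52.3% of genes of 100 kb or more were marked in the body. Marked starts outnumbered marked ends, but alpha and gamma genes share last exons, so their ends are not separate counts. Alpha genes had 3 starts and 0 ends marked, gamma genes 18 and 0, and beta genes 2 and 2. All 22 gamma genes were marked in each replicate, with 18 starts (21 and 18), and 25.4% of gamma body bases were in the mark. Because gamma genes share downstream exons and overlap one another, their bodies are not independent. PCDHGA1 held 78.5, 55.4 and 52.6 kb, PCDHGA2 76.2, 54.6 and 51.8 kb, and PCDHGA3 73.7, 52.6 and 49.8 kb. Beta genes, each a single short gene, had 10 of 16 bodies marked (15 and 10), and alpha genes 10 of 15 (11 and 10). H3K27me3 and H3K27ac were at 0 of the 53 starts.

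Among the other families, UDP-glucuronosyltransferases lay above the 18.0% of all protein-coding genes and the rest near or under it. These shares are not matched for length, and longer bodies were marked more often. The median UDP-glucuronosyltransferase gene lay in the class of 30 to 100 kb, where 18.8% of genes outside the zinc-finger family were marked. The UGT1A genes named next overlap, so their bodies are not independent. UDP-glucuronosyltransferases, which conjugate drugs and bilirubin, had 9 of 21 bodies marked (10 and 10), led by the overlapping UGT1A8 (39.7, 25.4 and 17.9 kb), UGT1A10 and UGT1A9. Of 367 solute carriers, 65 were marked, with 26.5, 21.6 and 20.6 kb in SLC66A2. Of 95 potassium channel genes, 15 were marked, led by KCNQ1 (37.4, 24.5 and 22.1 kb), while H3K27me3 was in 52. Cytochrome P450 genes had 10 of 56, led by CYP3A5 with 2.89 kb. TRIM genes had 9 of 73, led by TRIM24 with 15.4 kb. ZBTB genes, zinc-finger genes of another class, had 6 of 42 bodies, 0 starts and 0 ends, and their most marked member ZBTB44 had 4.21 kb. Collagen genes depended on the replicate, with 6 of 44 in the mark, 22 in replicate 1 and 7 in replicate 2. The median collagen gene was longer than 100 kb. Of genes of 100 kb or more outside the zinc-finger family, 52.3% were in the mark, above the 13.6% of collagens.

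Several families of short genes had few marked bodies. The median gene of each was under 10 kb long, and 1.31% of all genes of that length outside the zinc-finger family were marked. Olfactory receptors, with many short genes, had 4 of 415 bodies (8 and 5), led by OR1F1 with 10.0 kb. Keratins had 0 of 55 while H3K27me3 was in 23, and keratin-associated proteins had 2 of 94. Of these, KRTAP4-6 was covered over 100% of its 1.11 kb. PRAME family genes had 0 of 23, defensins 0 of 46, type I interferons 0 of 17 and X-linked cancer-testis genes 1 of 90 (CT45A10). HOX genes had 1 of 39, HOXD12, with 0.601 kb. Ribosomal protein genes had 2 of 83. Histone genes stood apart, with 7 of 76 bodies marked (9.21%), above that 1.31%. They had 9 starts (11.8%) and 7 ends (9.21%), above the 1.37% and 2.27% of all protein-coding genes. Among them the testis-specific H1-6 was covered over 100% of its length in each replicate.

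**Figure D4:**
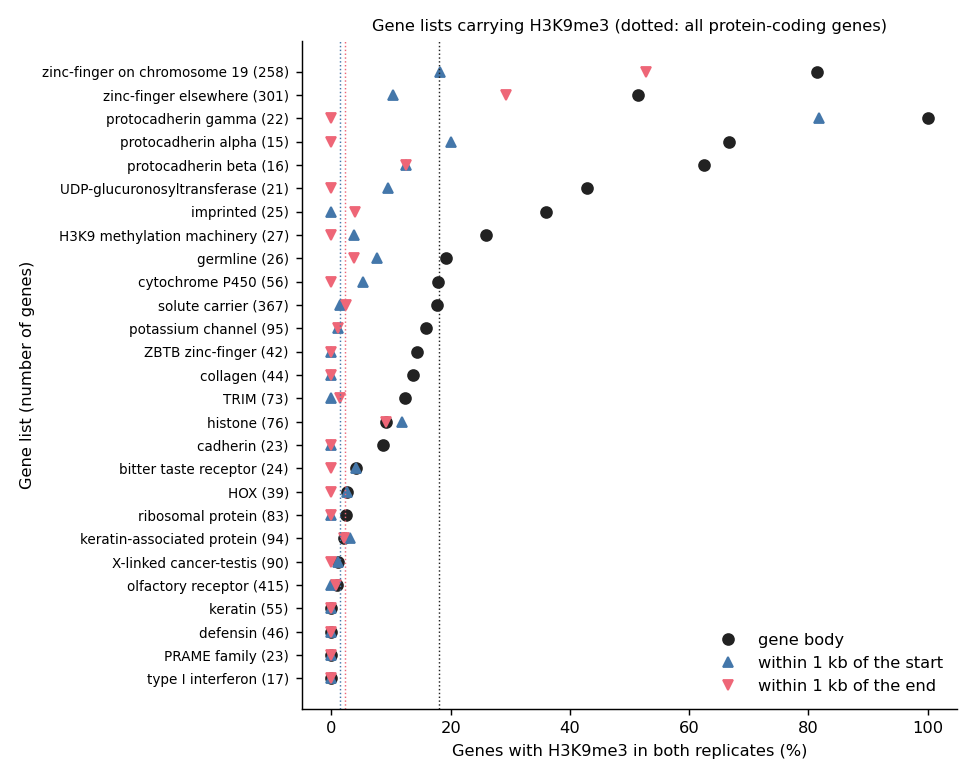
Percent of genes in each list (horizontal axis) with H3K9me3 in both replicates in the body (circles) or within 1 kb of the start or end (triangles), by gene list (vertical axis, with number of genes). Dotted lines show all protein-coding genes (18.0%, 1.37% and 2.27%), and both zinc-finger lists lie above each of them, as do starts of gamma protocadherins at 81.8%.

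Among 27 genes of the H3K9 methylation machinery, 7 (25.9%) had the mark in the body, against 18.0% of all protein-coding genes. The median gene of this list was 52.1 kb long, that of the imprinted list below 43.3 kb and that of the germline list 67.3 kb. The median of all protein-coding genes was 27.5 kb, and longer bodies were marked more often, so these shares are not matched for length. In replicates 1 and 2 the counts were 11 and 7, against 24.8% and 19.1% of all. CDYL, which encodes a chromodomain corepressor, held 50.3, 45.3 and 36.3 kb. ATF7IP, which encodes a partner of SETDB1, held 24.7, 22.7 and 17.9 kb, and EHMT1, which encodes an H3K9 methyltransferase, held 12.5, 11.7 and 8.66 kb. TASOR, which encodes a subunit of the HUSH silencing complex, carried the mark within 1 kb of its start and had 0 marked bases in its body. Of 25 imprinted genes, 9 bodies (36%, against the same 18.0%), 0 starts and 1 end (ZNF331) were marked. Replicate 1 had 14 bodies and 6 starts, and replicate 2 had 9 and 0, so the lists differed at starts. The 9 bodies in the mark include the zinc-finger genes ZNF331 and ZNF597 and the overlapping ZIM2 and PEG3. SNRPN was counted with 0.037 kb in the mark and ZNF597 with 0.073 kb. KCNQ1OT1, the long noncoding RNA that silences its domain, held 34.5, 24.2 and 21.97 kb. It lies inside KCNQ1, so these bases are also counted in the KCNQ1 values above. MEG3 held 7.62, 5.38 and 5.38 kb. Of 26 germline genes, 5 bodies (19.2%) were marked, close to the 18.0% of all, with BOLL and MOV10L1 at the start and STK31 at the end.

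Small nucleolar RNA clusters in the imprinted interval of chromosome 15 were densely covered. Across all 62062 annotated genes, 10.1% had the mark in the body, 2.43% within 1 kb of the start and 2.77% within 1 kb of the end. Of 30 SNORD116 copies, 22 bodies were marked (24 and 22), and of 48 SNORD115 copies, 20 (37 and 23). By bases, SNORD116 was covered at 80.7%, 74.0% and 74.0%, and SNORD115 at 77.3%, 48.1% and 41.8%, so SNORD115 differed more between replicates. Neighbouring copies share regions and sequence. Of 18756 lncRNA genes, 2001 bodies were marked (10.7%), and of 10007 processed pseudogenes, 281 (2.81%).

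Most regions of the mark were short, and the wide ones lay in zinc-finger genes. The median width was 988 bp, 1089 bp and 940 bp. Regions of at least 10 kb numbered 234 and held 13.3% of the marked bases. Zinc-finger bodies were touched by 5.67% of all regions, 31.5% of those of at least 5 kb, 60.3% of those of at least 10 kb and 75% of the 60 of at least 20 kb. The share in no annotated gene went the other way, from 37.5% of all regions to 5.00% of those of at least 20 kb. Median folds differed less, from 5.00 and 5.14 over all regions to 6.76 and 6.62 in the widest class.

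**Figure D5:**
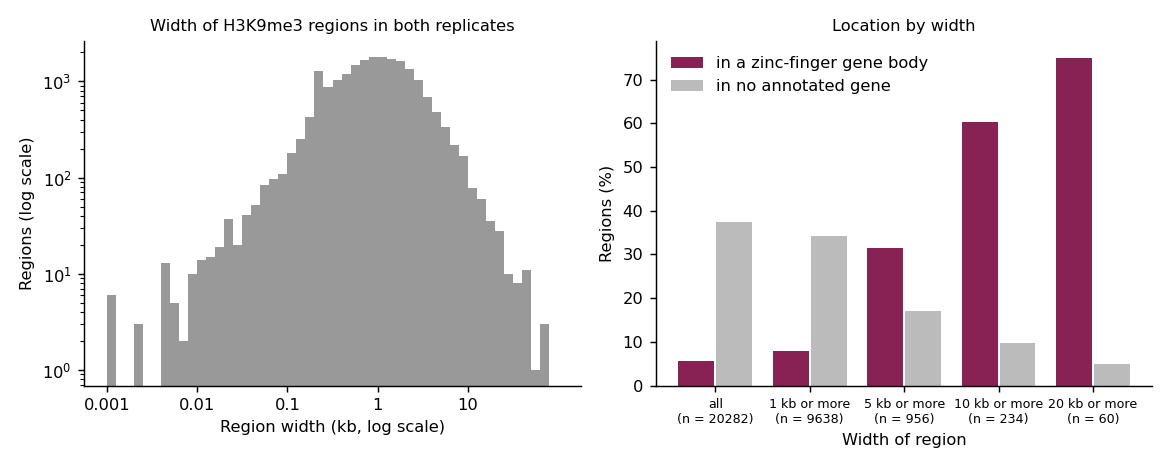
Left, number of regions (vertical axis, log scale) by width in kb (horizontal axis, log scale) for H3K9me3 in both replicates. Right, percent of regions of at least a given width (horizontal axis) that touch a zinc-finger gene body or no annotated gene, with zinc-finger bodies going from 5.67% of all regions to 75% of those of at least 20 kb.

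Of the 10 widest regions, 9 lay in or across zinc-finger genes. The widest, chr5:178926478-178996451, spanned 70.0 kb over ZFP2, ZNF454 and GRM6 with folds of 6.85 and 6.16. Next were 66.2 kb at chr12:133182922-133249141 (ZNF268 and ANHX), 64.6 kb at chr1:227608731-227673367 (ZNF678), 58.4 kb at chr1:247018205-247076631 (ZNF670) and 50.01 kb at chr19:58099697-58149710 (ZSCAN18 and ZNF329). The rest covered ZNF140 and ZNF891 (47.4 kb), CHFR and ZNF605 (44.2 kb), ZNF695 (43.99 kb) and ZNF717 (42.7 kb). The exception was chr15:25046020-25088368, with 42.3 kb over SNHG14 and SNORD116-1 to SNORD116-20, and folds of 8.33 and 7.46. When regions less than 5 kb apart were joined, the widest cluster became 381.6 kb at chr12:132880846-133262489, near the end of the long arm. The mark filled 88.2% of it, from CHFR through ZNF605, ZNF26, ZNF84, ZNF140, ZNF891, ZNF10 and ZNF268 to ANHX.

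By deposited fold, the 5 strongest regions were narrow, and 4 of them lay outside protein-coding genes, whereas the 100 and the 1000 strongest had median widths of 2366 and 2670 bp, above the 940 bp of all regions. Fold is the authors' value for each peak and was used only within a list. The 5 highest by mean rank were chr13:18214857-18215258 in FAM230C (18.0 and 16.7), chr12:2255815-2256188 in CACNA1C (18.4 and 16.1), chr5:92301098-92301327 (16.6 and 14.3), chr1:228622384-228622609 (17.1 and 13.4) and chr21:10274002-10274286 (14.2 and 13.6). They were between 226 and 402 bases wide, and the last 3 lay in no annotated gene. Tandem repeats like that in CACNA1C, scored as at least 60% identity between the central 300 bases and themselves shifted by 10 to 100 bases, were present in 19% of the 100 strongest regions. They were present in 5.80% of the 1000 strongest, in 2.65% of all regions and in 0.477% of genome windows of 300 bases taken every 30 kb. Regions in zinc-finger bodies had median folds of 5.41 and 5.46, against 5.01 and 5.17 in other protein-coding bodies and 4.92 and 5.07 outside annotated genes.

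By annotation, 45.6% of the mark lay in introns of protein-coding genes (41.0% of the genome does), 2.13% in coding exons (1.22%), 3.07% in untranslated and other exons (2.51%), 16.4% in other genes (16.1%) and 32.9% in no gene (39.2%). GC content was 44.6%, 44.3% and 44.8%, above the genome's 40.9% and below the 55.3% of H3K27me3. The ratio of observed to expected CpG was 0.248 in the mark, 0.240 in the genome and 0.380 in H3K27me3. The marks hardly shared bases, with 15.2 kb in 22 regions common to H3K9me3 and H3K27me3, or 0.0474% of H3K9me3, and 0.4 kb common to H3K9me3 and H3K27ac. Both H3K9me3 in the body and H3K27me3 within 1 kb of the start were found in 257 protein-coding genes. That is 7.14% of genes with the former, against 9.36% of all protein-coding genes with H3K27me3 at the start. It is 13.7% of genes with the latter, against 18.0% of all with H3K9me3 in the body.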

How the data were processed

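Per the submitters' processing notes, reads were handled with cutadapt 4.4, Bowtie2, Picard 2.17.11 and MACS2 2.1.1 on GRCh38 (hg38). Settings and the treatment of reads with several matches are not given in the sources used here. The authors deposited 1 broad peak list per antibody library, in which fold is the ratio of signal to IgG and −log10 p and −log10 q give each peak's significance. Replicates were not pooled, per the peak names in the files. Depth is unknown, so no interval could be given for a share. Reads, spike-in and IgG libraries were not analysed here.

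Overlapping peaks in a list were merged and intersected between replicates, with at least 1 shared base for an overlap. Genes came from GENCODE 44, starts and ends were taken with 1 kb either side, and sequences came from the hg38 reference. Values are descriptions apart from 2 exact permutation tests against H3K27me3 over libraries. The members and lists were chosen with earlier results of these data known. Named genes were the 10 most covered (of at least 5 kb marked) and those in the 10 widest regions. Genes in the 5 windows with the most marked bases and in the 5 strongest regions were named too, as were the 3 most marked per family. Members of 3 explicit lists with the mark at a start or end were also named. MAPK9, CHFR, STK3, FAF1 and RBAK, and a few neighbours and runners-up given as examples, were chosen after their values were seen. Alternatives were the replicate lists, peak strength, overlap, window and joining distance. Interval code was tested on 200 simulated sets, and coverage was right in 200. Python 3.11.15, numpy 2.4.6, pandas 2.3.3, pysam 0.24.0, samtools 1.23.1 and matplotlib 3.10.9 were used.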

Additional observations from a re-analysis of the deposited data

Results flagged for a closer look

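Chromosome Y lay outside the description above. The H3K9me3 lists held 82 peaks on it in replicate 1 and 50 in replicate 2, covering 89.3 and 52.0 kb. Both H3K27me3 lists, called against the same IgG libraries, held 0 and 1 there. The median fold over IgG was 6.37 and 6.36, and 0 peaks lay beyond 56 Mb. They are given because no comparison of the report uses them, and their cause was not tested.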

How the results depend on the processing

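Of 54 alternative values, 33 were labelled the same, 21 moved and 0 reversed, and the cause of these moves was not tested. Counts were the same within a fixed fold, which 4955 bodies against 3599 met. Other values were the same within the SD between replicates. The differences between H3K9me3 and H3K27me3 were labelled by sign alone, and only they could reverse. The log2 ratio difference of 1.965 became 0.8160 with 5 kb windows and 2.994 with −log10 q of at least 5. With the latter, the chromosome 19 difference went from 6.955 to 10.84 points. Leaving out 1 replicate, so that the other list stood alone, gave 38.77 to 59.70 Mb of bases, 6.963% to 9.613% of chromosome 19, 3823 to 4955 bodies, 305 to 519 starts, 487 to 638 ends and a median width of 988 to 1089 bp. Without replicate 2, bases moved from 32.12 to 59.70 Mb, chromosome 19 from 6.243% to 9.613% and starts from 274 to 519. With bases in either replicate there were 66.36 Mb, 10.33% of chromosome 19, 546 starts and a median width of 1043 bp. With a deposited −log10 q of at least 5 in both lists, 2880 regions were left. They gave 11.22 Mb, 2.773% of chromosome 19, 1016 bodies, 64 starts, 196 ends, 110 chromosome 19 zinc-finger bodies, 67 chromosome 19 zinc-finger ends and a median width of 2420 bp. At least 10% of the body in the mark left 628 bodies, and at least 500 bases left 159 starts. Windows of 5 kb either side gave 1023 starts and 1058 ends. Joining regions less than 5 kb apart gave a median width of 1213 bp.

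With the replicate number as a block, the differences between H3K9me3 and H3K27me3 were the same, 1.965 for the log2 ratio of ends to starts and 6.955 points for chromosome 19, each with an exact sign-flip permutation p of 0.5, the smallest that 2 pairs allow. Whether the numbers pair the samples is not stated. Depth was unknown, so what was below the authors' peak threshold cannot be told from what lacked the mark.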
